A study of Mus musculus with 2 samples.

Results

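The mammalian circadian clock genes Arntl, Clock, Per1, Per2, Per3, Cry1, Cry2, Nr1d1, Nr1d2 and Dbp were examined in the mouse odontogenic epithelial line mDE6 after stimulation with CHIR99021, an inhibitor of glycogen synthase kinase-3 (GSK-3) that activates the β-catenin pathway. The rule took every noncontrol probe that the array annotates with one of these 10 symbols and used no measured value, although the genes were proposed with earlier results of these data known. They numbered 25 probes of the 56605 on the array, which carries 37074 gene names. One sample was labelled mDE6, 0/1%DMSO treated, and is called the control. The other was labelled 5 mM CHIR99021, whereas the study's methods give the same figure in micromolar units and call the control untreated. Both samples were collected at 6 h, and each was measured on 1 single-colour (Cy3) Agilent array, so differences between them have no replicate check and no test was made.

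The clock is a feedback loop of transcription. CLOCK and BMAL1, the product of Arntl, form a dimer that activates genes through E-box elements, and the PER and CRY proteins encoded by some of these genes return to the nucleus and repress the dimer. The nuclear receptors REV-ERBα and REV-ERBβ, encoded by Nr1d1 and Nr1d2, repress Arntl through ROR elements, and DBP activates genes through D-box elements. GSK-3, the kinase that CHIR99021 inhibits, phosphorylates several clock proteins, which changes their stability. Tooth-forming cells express clock genes, and the daily growth lines of enamel and dentine are a known mark of a daily rhythm in this organ. With a single time point, a shift in the phase of a rhythm and a change in its level cannot be told apart here.

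The elements through which clock proteins act were searched in the promoters of the members, and the windows before a start site that hold a match are shown because they hold the letters of these elements in 5 members. Promoters ran from 250 bases before to 50 bases after the start site in the RefSeq table of assembly GRCm38.p6, both strands were searched, and capitals mark the matches. CLOCK:BMAL1 binds the E-box, searched as CACGTG. A weaker variant of it, the E'-box, was searched as CACGTT and stands in the windows below as its reverse complement. For the D-box the letters were TTATGTAA or TTATGCAA. Receptors of the ROR and REV-ERB families bind the ROR element, searched as TAGGTCA. The element of TCF/LEF, the partners of β-catenin, was searched as CTTTGAT. No matches in the members overlapped.
Per1, chr11:69098771-69098944, + strand: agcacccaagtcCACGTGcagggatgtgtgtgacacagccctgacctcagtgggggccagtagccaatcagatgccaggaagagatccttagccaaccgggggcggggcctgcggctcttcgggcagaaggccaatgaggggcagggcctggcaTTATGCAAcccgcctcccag
Cry1, chr10:85185097-85185145, − strand: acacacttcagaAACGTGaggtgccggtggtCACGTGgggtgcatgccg
Cry2, chr2:92434218-92434247, − strand: acacatggtgggAACGTGagggggcggagc
Nr1d1, chr11:98775388-98775417, − strand: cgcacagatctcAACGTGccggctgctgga
Per3, chr4:151044804-151044882, − strand: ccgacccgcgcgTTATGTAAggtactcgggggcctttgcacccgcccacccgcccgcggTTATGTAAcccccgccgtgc

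The table held promoters of 9 of the 10 members, Per2 being the one not listed, and 6 of the 9 carried at least 1 match. The share of all promoters with a match to any of the elements was not computed. Members were counted as genes, and Clock had 3 promoters, Arntl 2 and Per1 2. The shares below are per promoter and so are not in the same unit. The E-box stood in 2 members, Per1 and Cry1, and in 7.15% of all 32851 promoters. Its E' variant was found in 3 members, Cry1, Cry2 and Nr1d1, and in 4.68% of all promoters. D-box matches stood in 2 members, Per1 with 1 and Per3 with 2, against 1.66% of all promoters. Arntl carried a ROR element 31 to 37 bases after one of its start sites, an element found in 2.61% of promoters. None of the members had the TCF/LEF letters, which 3.73% of promoters held, and the windows of Clock, Nr1d2 and Dbp had no match to any of the elements. A match is a description of the letters and does not show binding.

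Spots well above background made up 49.8% of the control array and 48.3% of the CHIR99021 array, with no spot saturated. The 75th percentile of the spot intensities was 486.7 for control and 469.2 for CHIR99021, and every signal below is the intensity divided by that percentile of its array. A ratio is the signal of CHIR99021-treated cells over that of control cells. The Z-score gives how many standard deviations the log2 ratio of a probe lay from the mean of the 500 tested probes nearest to it in mean signal. Lower expression was called where the ratio was 0.66 or less and the Z-score -2.0 or less, after the study's criteria. The study set none for higher expression, and the mirror image, 1.5 or more and 2.0 or more, was used here. Probes printed several times on an array gave a median spot-to-spot SD (log2) of 0.218 below an intensity of 100, of 0.091 from 100 to 1000 and of 0.031 above 1000. This SD covers the array alone and not the cells, and the classes below 1000 rested on 3 probes each.

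Among the β-catenin target genes used to check the labels, Lef1 read 0.491 in the control and 1.47 after CHIR99021, a log2 ratio of 1.58 at its highest-signal probe. Axin2 was not well above background in the control, and was at least 1.66-fold higher after CHIR99021 on the 1 of its 2 probes that was measured. Lef1 met both criteria for higher expression, whereas Axin2 passed the ratio limit but not that on the Z-score. The label of the cells as epithelial was checked too. Of 7 epithelial markers, 3 were well above background on each array and 2 on both (Trp63 and Krt14), whereas Cdh1, Epcam and Krt8 were on neither, and the brightest probes of the 7 markers summed to 4.94 in the control and 6.72 after CHIR99021, of which Trp63 alone gave 4.74 and 6.17. Krt5, named after its values were seen, was the 1 epithelial marker that met both criteria, being dim in the control and at least 7.24-fold higher after CHIR99021, where its spot had a pixel coefficient of variation of 0.323. All 6 mesenchymal markers were well above background on both arrays, with sums of 940 and 884, and none of the 5 ameloblast markers was on either array. Signals of different probes cannot be compared directly, so the sums give no relative share of the lists. The part of these markers in the ratios below was not tested.

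All 10 clock genes were detected in both samples. Of the 25 probes, 22 were well above background on at least 1 array and so were tested, 21 of these on both arrays, and the other 3 belonged to Clock, Per2 and Per3, which have further probes. No member probe met both criteria for lower expression, against a background of 2.73% of the 28066 tested probes, and 1 probe, of Per1, met both for higher expression, against 2.39%. At the highest-signal probe of each gene 0 of 10 members were called in either direction, where 3.24% of the 18837 tested genes were called lower and 2.68% higher. By the ratio alone, Cry1 was the 1 member past the limit for higher expression and none was past that for lower expression, with 8.05% and 9.67% of all tested genes past them. A lower level in such a bulk sample can come from fewer cells expressing a gene or from less RNA per cell, and these cannot be told apart.

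**Figure D1:**
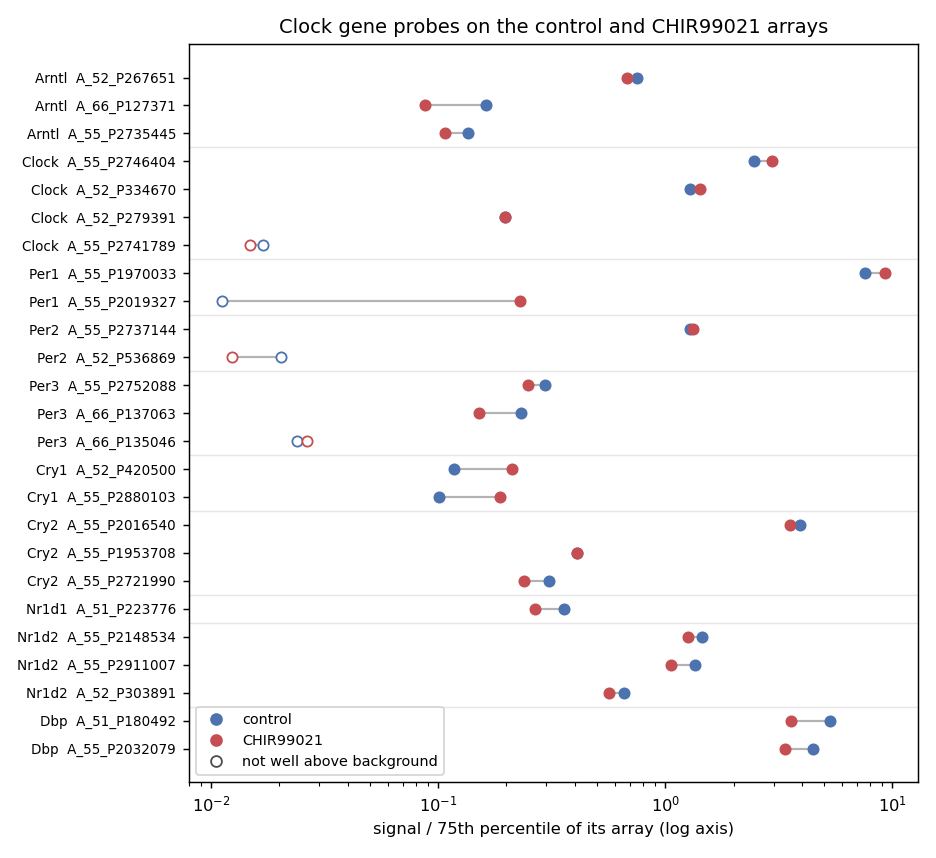
Signal of every clock gene probe on the control (blue) and CHIR99021 (red) arrays, as a multiple of the 75th percentile of its array on a log axis, with a line joining the values of a probe and open circles where the spot was not well above background. Both Cry1 probes lie further right after CHIR99021, both Dbp probes further left, and the long line is the Per1 probe that was dim in the control.

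The genes of the positive limb differed little in ratio at their brightest probes. The highest-signal probe of Arntl, whose product BMAL1 is the partner of CLOCK, read 0.753 in the control and 0.679 after CHIR99021, a ratio of 0.901. Its other probes were dimmer and lower after CHIR99021, one reading 0.163 and 0.0876 (ratio 0.537) and one reading 0.135 and 0.107 (ratio 0.796). All 3 Arntl probes were thus lower after CHIR99021, but they spread over 0.75 on the log2 scale, the widest range of any member among probes measured on both arrays. The probe at 0.537 passed the ratio limit, and its Z-score was -0.85, as the 500 probes nearest to it in signal had an SD of 1.01 in log2 ratio.

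Clock, which encodes the partner of BMAL1 in the dimer, was slightly higher at its brightest probe, with 2.47 in the control and 2.95 after CHIR99021 (ratio 1.19, Z-score 0.64). Probe A_52_P334670 read 1.29 and 1.42 (log2 ratio 0.13), and probe A_52_P279391 read 0.198 and 0.197 (ratio 0.998). The first lay past the largest spot-to-spot SD of its intensity class and the others within it. The fourth Clock probe was dim on both arrays.

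Among the repressors, Cry1 had the largest ratio of any member at its highest-signal probe. That probe, A_52_P420500, read 0.117 in the control and 0.210 after CHIR99021, a ratio of 1.79 or 0.84 on the log2 scale. The second Cry1 probe, A_55_P2880103, read 0.101 and 0.187, a ratio of 1.85. The probes lie 52363 bases apart in mm9, and their log2 ratios differed by 0.05. Both pass the ratio limit and neither reaches the Z-score limit, with 0.98 and 0.88, since the SD of log2 ratio among probes of the same signal was 0.846 and 1.01. Against the median absolute deviation of the same neighbours instead of their SD, both were called higher, under a rule whose share of calls over all probes was not computed. The ratio at the brighter probe ranged from 1.41 to 1.90 over the alternative settings. The first 30 bases of each probe are shown because these spots gave the ratios described, together with those of the Dbp and Per1 probes described below. Among them only the Per1 probe A_55_P2019327 met both criteria.
Cry1, A_52_P420500, mm9 chr10:84594731-84594790, − strand: ttttcatgtatggtaaaagttaaagttaac
Cry1, A_55_P2880103, mm9 chr10:84647094-84647153, − strand: aaggagtgcatccagggcgccgacaccatc
Dbp, A_51_P180492, mm9 chr7:52965265-52965324, + strand: tgccagggcagagtcctgttccttgctcag
Dbp, A_55_P2032079, mm9 chr7:52965461-52965520, + strand: tggggaacccatccatccaaccgcctccat
Per1, A_55_P1970033, mm9 chr11:68923364-68923423, + strand: gtgttctcagctctaccctctaccaatgac
Per1, A_55_P2019327, mm9 chr11:68919895-68919954, + strand: ttagtgtttcagggcagtagaggtggccgg

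The paralogue Cry2 did not share the direction of Cry1. Its highest-signal probe read 3.91 in the control and 3.55 after CHIR99021 (ratio 0.909), and a dimmer one read 0.308 and 0.239 (ratio 0.775). The third Cry2 probe read 0.407 on both arrays (ratio 0.999). None reached either criterion, and whether the paralogues differ in response could not be tested with 1 array each. Their promoters share the E'-box, and the E-box was matched in Cry1 alone of the pair.

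Per1, which is also an early responder to many stimuli, was higher at both of its probes, which gave very different ratios. The brighter probe, A_55_P1970033, read 7.61 in the control and 9.32 after CHIR99021, with a ratio of 1.22 and a Z-score of 0.73. The other, A_55_P2019327, read 0.0112 in the control, where it was not well above background, and 0.229 after CHIR99021. It was at least 4.71-fold higher, and it was the only called probe of any member. The Z-score of 2.41 behind this call was computed from the control reading as it stood, not well above background, and does not belong to the bound. Its spot on the CHIR99021 array had uneven pixels, with a coefficient of variation of 0.296 against a limit of 0.261, which is the 99th percentile over spots of the earlier array rows while this spot lies in row 322, and it was annotated with the cDNA clone AK081813 instead of a RefSeq transcript. The part of the uneven spot in this call was not tested. Leaving out uneven spots removes this probe, so the count of called probes was then 0 in advance.

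Per2 and Per3 showed no such difference. The measured probe of Per2 read 1.28 in the control and 1.32 after CHIR99021 (ratio 1.03), a difference within the spot-to-spot SD, and its ratio ranged from 0.995 to 1.09. It was below 1 under 2 settings, no scaling and the percentile over probes measured on both arrays, which shifted all tested probes by -0.05 on the log2 scale. Per3, which carried a pair of D-box matches in its promoter, was lower at both measured probes. The brighter Per3 probe read 0.295 in the control and 0.248 after CHIR99021 (ratio 0.838), and the dimmer read 0.232 and 0.151 (ratio 0.651, Z-score -0.73). The dimmer probe was past the limit on the ratio but not that on the Z-score.

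The REV-ERB receptors, which repress Arntl, were lower after CHIR99021 on every probe. Nr1d1 read 0.358 in the control and 0.267 after CHIR99021 on its single probe, a ratio of 0.747 (Z-score -0.82). The 3 probes of Nr1d2 read 1.45 and 1.26 (ratio 0.868), 1.36 and 1.06 (ratio 0.785), and 0.661 and 0.567 (ratio 0.859). The Nr1d2 probes lie within 685 bases, do not overlap and differed by 0.15 in log2 ratio. All 4 differences exceeded the largest spot-to-spot SD of their class, which covers the array alone and not the cells. None met either criterion. The control spot of the Nr1d2 probe at 0.785 had uneven pixels, with a coefficient of variation of 0.267 against a limit of 0.26 on that array, the 99th percentile of well-above-background spots in the earlier rows. Its part in that ratio was not tested.

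Dbp, a PAR bZIP activator that is itself a strongly rhythmic output of the CLOCK:BMAL1 dimer, had the lowest ratio of the members at its highest-signal probe and the lowest Z-score of any member probe. Its probe A_51_P180492 read 5.33 in the control and 3.58 after CHIR99021, with a ratio of 0.672 (-0.57 on the log2 scale) and a Z-score of -1.81. The neighbouring probe A_55_P2032079, 196 bases away, read 4.48 and 3.37, with a ratio of 0.753 and a Z-score of -1.49. Both spots were bright, where the spot-to-spot SD (log2) was 0.031. Both probes fell short of the limits of 0.66 and -2.0, so Dbp was not called. Its ratio ranged from 0.648 to 0.713 over the alternative settings and was under 0.66 in some of them, and it was called in none.

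**Figure D2:**
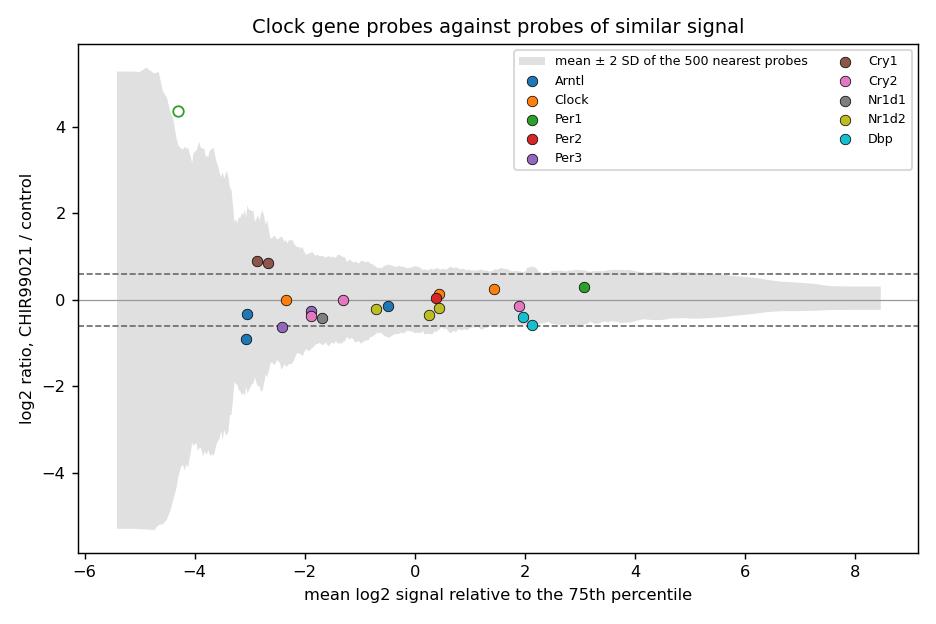
Log2 ratio of CHIR99021 over control for each tested clock gene probe against its mean log2 signal relative to the 75th percentile, with the mean ± 2 SD of the 500 nearest probes in grey, the ratio limits dashed and an open circle for the probe dim in the control. The Per1 open circle is the single point outside the band, the Cry1 points lie above the upper ratio limit within a wide band, and the lower Dbp point, at -0.57, approaches the lower edge.

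Across the 21 member probes measured on both arrays, 15 had a ratio below 1, or 71.4%, with a median ratio of 0.869. Over all 25025 probes measured on both arrays 44.6% were below 1, with a median ratio of 1.03. At the highest-signal probe 6 of 10 members were below 1, with a median log2 ratio of -0.14, where 46.6% of all tested genes were below 1 and their median was 0.02. Of the 15 lower probes 12 differed by more than the largest spot-to-spot SD of their intensity class, as did 4 of the 6 higher ones. The share of all 25025 probes past that SD was not computed. As it covers the array alone and not the cells, these counts do not set the members apart from other probes. At the highest-signal probe the members below 1 were Arntl, Per3, Cry2, Nr1d1, Nr1d2 and Dbp, and those above 1 were Clock, Per1, Per2 and Cry1. Probes of a gene are not replicates of the treatment, and these counts are descriptions with no test.

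Position on the slide was recorded beside these counts. In the earlier 192 of the 384 array rows, 7 of 8 member probes measured on both arrays were below 1, with a median log2 ratio of -0.29, and in the later rows 8 of 13 were, with a median of 0.00. Both arrays lay on 1 slide, each sample in its own place, so the place on the slide and the treatment cannot be told apart. The shares below 1 over all probes of the same rows were not computed, and the part of the row in the member ratios was not tested.

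**Figure D3:**
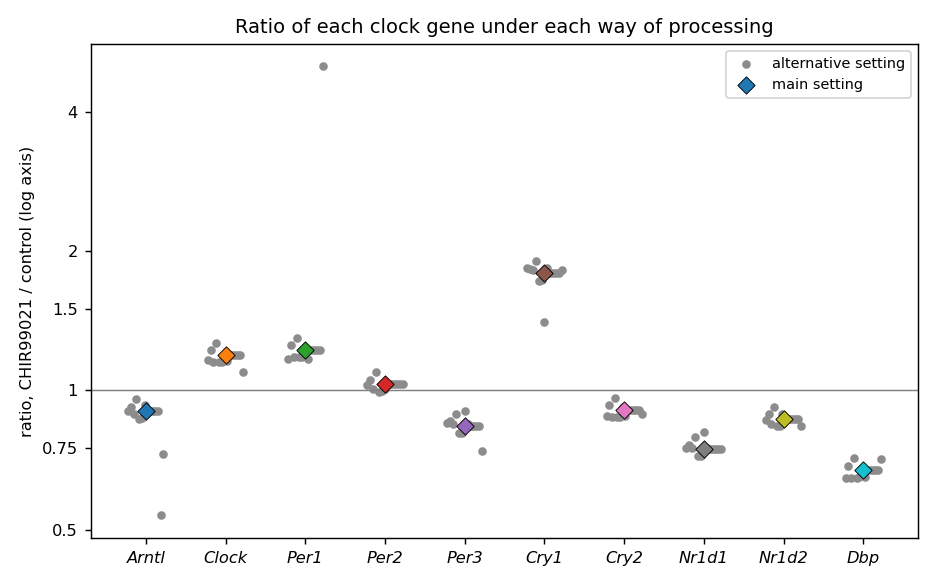
Ratio of CHIR99021 over control of each clock gene on a log axis, with the main setting as a diamond and each alternative scaling, filter or rule for several probes as a grey point. Per2 is the single gene with points on both sides of 1, Dbp stays between 0.648 and 0.713, and the isolated point of Per1 at 5.01 is the mean over its probes that includes the one dim in the control at that dim reading, so that it is no measured fold.

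Other textbook clock components and outputs were taken from a list of 27 genes, of which 23 were measured. Those not well above background were Npas2, Rorb, Bhlhe41 and Fbxl21. At the highest-signal probe 2 of the 23 met both criteria for higher expression, against the background of 2.68%, and none met those for lower expression. The 23 genes had a median ratio of 1.07, with 8 below 1 and 15 above. Bhlhe40, which encodes DEC1, an E-box-binding repressor of CLOCK:BMAL1, read 2.53 in the control and 7.28 after CHIR99021. Its ratio of 2.87 had a Z-score of 4.15 and stayed between 2.77 and 3.05 under all 8 alternative scalings. Nampt, a clock-controlled enzyme of NAD synthesis, read 2.24 and 3.78, with a ratio of 1.69 and a Z-score of 2.05.

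The remaining measured groups of this list gave no call at their highest-signal probes. These were the PAR bZIP factors and their antagonist Nfil3 (3 genes), 1 ROR receptor, 1 paralogue of the activators, 6 kinases of clock proteins, 3 ubiquitin ligases and 2 genes of the timeless complex. Some were looked at after their values were seen. Noct, a clock-controlled protein of the deadenylase family named Ccrn4l on the array, had a log2 ratio of 0.14 at its brightest probe (9.17 in the control and 10.1 after CHIR99021). Its other probes read 2.48 and 4.40 (ratio 1.77, Z-score 2.58) and 1.83 and 3.06 (ratio 1.67, Z-score 2.12), and both met the criteria for higher expression. The probes of Noct therefore disagreed on its call. Csnk1d, a casein kinase that phosphorylates PER proteins, read 27.4 and 28.9 at its brightest probe (ratio 1.06), while its other measured probes had ratios of 1.58 (Z-score 1.91) and 1.55 (Z-score 1.29), past the ratio limit alone. In the same group, Csnk2a1 had a ratio of 1.03 at its brightest probe and 0.955 at another. Its remaining probe went the other way, with 0.161 in the control and a dim spot after CHIR99021. It was at least 2.88-fold lower, past the ratio limit alone, and its control spot had a pixel coefficient of variation of 0.344. Ciart, a repressor of CLOCK:BMAL1, read 0.613 and 0.868 at its brightest probe, a ratio of 1.42. The other Ciart probe was dim in the control and at least 2.05-fold higher after CHIR99021. Its Z-score of 0.63 was computed from the dim control reading and does not belong to the bound.

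The genes of the kinase that CHIR99021 inhibits differed little in RNA. Gsk3a read 11.9 in the control and 13.9 after CHIR99021 at its brightest probe (ratio 1.16), and Gsk3b read 7.48 and 6.75 (ratio 0.903). Btrc, the ubiquitin ligase subunit that recognises both PER proteins and β-catenin, read 0.207 and 0.142 (ratio 0.686, Z-score -0.76). These genes were also chosen after their values were seen, and none met both criteria.

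**Figure D4:**
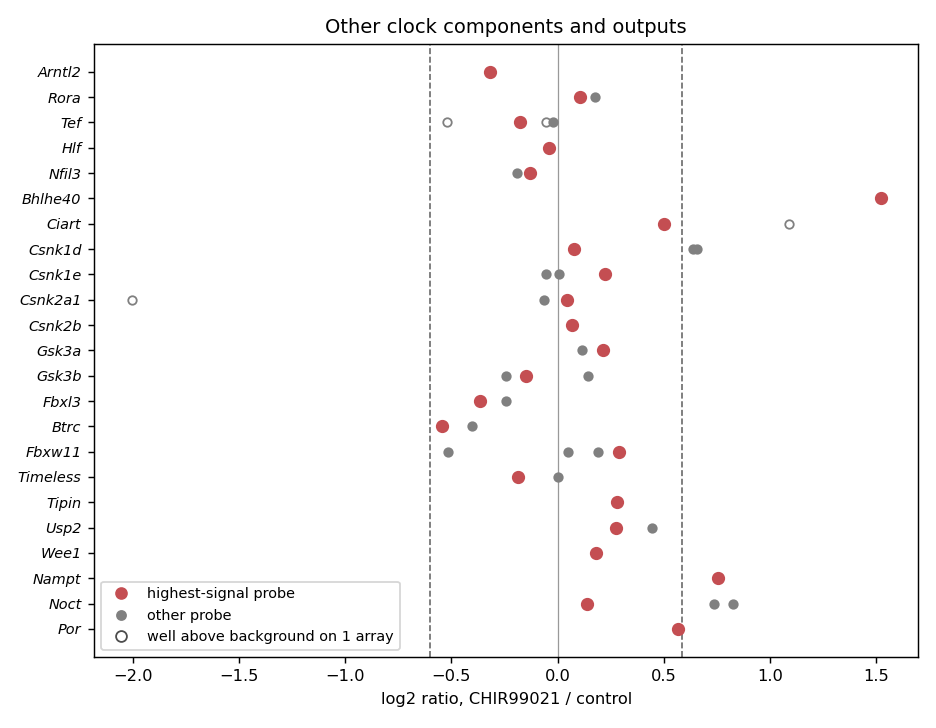
Log2 ratio of CHIR99021 over control of the other clock components and outputs, with the highest-signal probe of each gene in red, further probes in grey, open circles where a probe was well above background on 1 array, and the ratio limits dashed. Bhlhe40 lies furthest to the right at 1.52, Nampt lies past the upper limit, and grey probes of Noct and Csnk1d lie past it while their red points do not. Open circles mark a probe of Ciart past the upper limit and a probe of Csnk2a1 past the lower limit.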

How the data were processed

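Total RNA of control and CHIR99021-treated mDE6 cells was amplified, labelled with Cy3 and hybridised to Agilent arrays (1 array per condition). The deposited intensity values were made by the authors with Feature Extraction 10.7.1.1 per the file headers, which name a mouse design and mm9 (the labels' processing notes name 9.5.1.1, and the methods a human array), with background subtracted and no scaling between arrays. A deposited table of intensities that the authors normalized between the arrays, by a method not given in the sources used here, served as an alternative.

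Control spots and 101 spots with outlier flags were left out, spots of a probe were averaged, and intensities were divided by the 75th percentile of each array (Python 3.11.15, numpy 2.4.6, pandas 2.3.3, matplotlib 3.10.9). Tested probes were well above background on 1 or both arrays. A dim control was replaced by the lowest intensity well above background, 23.68 there and 26.3 on the CHIR99021 array, for "at least" bounds. The methods print the Z-score limit without its minus sign. Alternatives were other scalings, normexp with an offset of 50 (limma 3.58.1, R 4.3.3), filters, spots, Z-scores and rules for several probes. The calls were tested on simulated data.

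The members and lists were chosen with earlier results of these data known. Named were all members with all probes, genes of the wider list past the ratio limit at their highest-signal probe, and Axin2 and Lef1. Noct, Csnk1d, Csnk2a1, Ciart, Gsk3a, Gsk3b, Btrc and Krt5 were named after their values were seen. As 2 arrays give 1 ratio per gene, no gene was named for a similar pattern. 1 epithelial marker and 1 gene of the wider list are not reported here and were left out of the counts.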

Additional observations from a re-analysis of the deposited data

How the results depend on the processing

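The count of member probes called higher, 1 in the main setting, was 1 under all 8 alternative scalings. It was also 1 with a floor on low signals and with no filter on dim probes. The count was 0 when both arrays had to be well above background, 0 without uneven spots and 0 in the earlier rows alone (which hold values for 5 of the 10 members). Each of these filters leaves out the called Per1 probe itself, so the 0 was fixed in advance. By the ratio alone the count was 3, and it was 3 with a Z-score by median and MAD. The count called lower, 0 in the main setting, was 2 by the ratio alone (Arntl and Per3, 1 probe each) and 1 by median and MAD (Arntl). Both rules differ from the main one over the whole array. By the ratio alone, 1403 of the 25025 probes measured on both arrays were lower and 1375 higher, beside 2 and 2 of the 21 such member probes. The share of all probes called with median and MAD was not computed. The median log2 ratio of the members, -0.14, was -0.11 with median scaling, -0.18 with cyclic loess, -0.058 with spike-in scaling, -0.20 without scaling, -0.20 with the percentile over probes that passed on both arrays, -0.20 in the earlier rows and -0.21 as a mean over probes. These scalings also moved the median of all tested probes, by 0.03 with median scaling, -0.03 with cyclic loess, 0.09 with spike-in scaling, -0.05 without scaling and -0.05 with that percentile. For the other moves the cause was not tested. The wider list kept 0 genes called lower and 2 called higher, Bhlhe40 and Nampt, under every alternative run. With 1 array per condition there was no replicate to leave out. No paired analysis was possible because each group has 1 sample. Low signal limits Cry1, Arntl and Per3, whose weaker probes, although well above background, lie among neighbours of wide scatter.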
